A study of Mus musculus with 6 samples.

Results

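The YAP-TEAD module was examined through 10 genes of the Hippo pathway, 2 coactivators (Yap1 and Wwtr1), 2 DNA-binding factors (Tead1 and Tead3) and 6 genes that serve as their targets (Lats2, Amotl2, Ctgf, Cyr61, Ankrd1 and Axl). They were looked up by symbol among the 48587 genes of the count table, and all 10 were found and passed the abundance filter. The cells were 4T1, a mouse mammary carcinoma line, kept in DMEM/F12 with serum. METTL7A1 cells carried full-length Mettl7a1 cDNA in a vector with a CMV promoter, which drives strong expression in most cells, and were held under G418 selection. The paper describes the METTL7A1 expressed in 4T1 cells as FLAG-tagged. Mock cells, the control, were 4T1 cells stably transfected with the empty vector. Each group had 3 libraries of total RNA depleted of ribosomal RNA. Whether the transfectants were 1 clone or a pool was not given in the sources used here, so a difference between the 2 cell populations and an effect of METTL7A1 cannot be told apart. Nothing in the labels says how the replicate cultures were separated, and p values measure only the spread between these libraries.

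YAP (encoded by Yap1) and its paralogue TAZ (Wwtr1) are transcriptional coactivators without a DNA-binding domain of their own. When they enter the nucleus they bind TEAD factors and raise the transcription of genes for matrix signalling, growth and survival. The Hippo kinases, MST and then LATS, phosphorylate YAP and TAZ and keep them in the cytoplasm, and the kinases themselves respond to cell density, junctions and the actin cytoskeleton. In mammary carcinoma cells the pathway is known for its link to migration and invasion. As the control of YAP and TAZ is largely at the protein level, the measurements here show transcripts of the factors and of their targets, not the location of the proteins.

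Library totals ran from 18386780 to 28459338 counts, and 13166 genes reached 1 cpm, the count scaled to a common library total, in 3 or more libraries. Mettl7a1 was at 342 to 422 cpm in METTL7A1 cells and at 1.17 to 1.64 cpm in mock cells, so every library followed its label. All 6 epithelial markers were expressed (46.1 to 615 cpm on average in METTL7A1 cells), with Krt7 alone called (log2 fold change 0.50). Of the 8 blood, endothelial and adipocyte markers none passed the filter, and their summed level was at most 1.30 cpm in any library. Of the 4 fibroblast markers only Pdgfra passed, and it was called as higher (log2 fold change 0.47, with METTL7A1 libraries above mock). Its part in the results was not tested. The common biological coefficient of variation was 0.0915. Of all 13166 genes, 42.1% were called between METTL7A1 and mock cells at an adjusted p under 0.05 (21.1% higher and 21% lower), and 2.48% were past the thresholds of the study (adjusted p under 0.01 with a log2 fold change over 1.5 in either direction). The adjusted p of each gene is from edgeR's quasi-likelihood test with Benjamini-Hochberg adjustment over all genes tested.

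Most of the module differed little between METTL7A1 and mock cells. Of the 10 genes, 2 were called, compared with the background of 42.1%. Without the abundance filter 2 were called again, and the background was then 20.9% of 28601 genes. Cyr61 was 1.25-fold higher and Axl 1.31-fold lower in METTL7A1 cells. Their log2 fold changes of 0.32 and -0.38 were smaller in size than the median of 0.48 over all called genes. The other 8 genes had log2 fold changes between -0.16 and 0.10, and none of the 10 was past the study thresholds (2.48% of all genes). The median log2 fold change of the 10 genes was -0.01, and that of all genes tested was -0.03. In 4 of the 10 genes the METTL7A1 libraries lay wholly above or below the mock libraries, which held for 51.6% of all genes tested.

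The levels of the 10 genes spanned a wide range. Per kb of exon, the target genes Axl, Cyr61, Ankrd1 and Ctgf were above 97% of the genes tested (percentiles 98.6, 98.7, 97.6 and 97.5 of the mean over all libraries). Tead3 was the least abundant at percentile 32.4, and Tead1 stood at percentile 55.5. In mock cells the order by mean cpm per kb was Axl, Cyr61, Ctgf, Ankrd1, Amotl2, Yap1, Wwtr1, Lats2, Tead1 and Tead3. In METTL7A1 cells Cyr61 stood before Axl and Ankrd1 before Ctgf, and the order of the other 6 was the same. Axl (210 to 247 cpm per kb) and Cyr61 (195 to 220 cpm per kb) overlapped in mock cells. In METTL7A1 cells they were separate, with Cyr61 at 247 to 269 and Axl at 156 to 195 cpm per kb. Ctgf (137 to 142 cpm per kb) lay just above Ankrd1 (127 to 136) in mock cells and just below it in METTL7A1 cells (115 to 133 compared with 135 to 139). The neighbours further down the order did not overlap in either group.

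**Figure D1:**
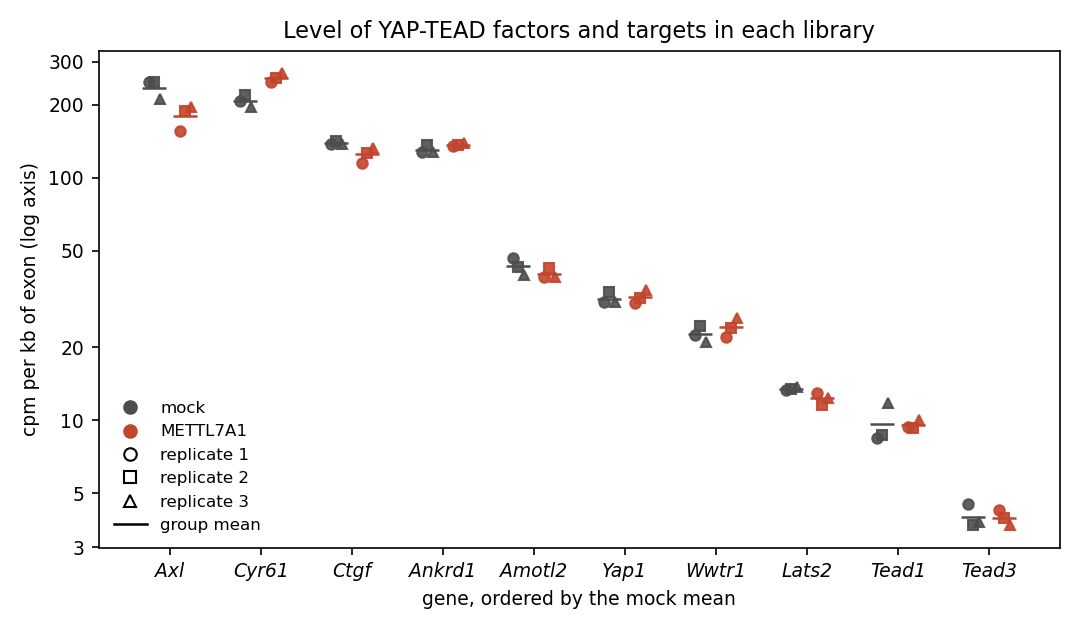
Level of the 10 genes in each library, in cpm per kb of exon on a log axis, with mock in grey, METTL7A1 in red, a marker shape for each replicate number and a line at each group mean. Only Cyr61 and Axl were called, Cyr61 with METTL7A1 libraries above mock (247 to 269 against 195 to 220) and Axl with METTL7A1 libraries below (156 to 195 against 210 to 247).

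The coactivators came first, since the study lists qRT-PCR primers for Yap1 and an antibody to YAP1. It followed select mRNAs over polysome gradients and scaled them to total levels from its own qRT-PCR. Yap1 (mm10, chromosome 9, 7931999 to 8004596, minus strand) was at 127, 133 and 144 cpm in METTL7A1 replicates 1 to 3 and at 129, 141 and 128 cpm in mock replicates 1 to 3. The groups overlapped throughout, with means of 134 ± 8.58 and 132 ± 7.54 cpm (SD, n = 3 each). The log2 fold change was 0.02, with a 95% confidence interval from -0.14 to 0.19 (edgeR adjusted p = 0.846). Wwtr1 (chromosome 3, 57455649 to 57575910, minus strand) was at 106, 114 and 127 cpm in METTL7A1 cells and at 107, 117 and 100 cpm in mock cells. Its groups overlapped as well, with a log2 fold change of 0.10 and an interval from -0.09 to 0.28 (edgeR adjusted p = 0.396). METTL7A1 replicate 3 and mock replicate 2 were the highest of their groups for both coactivators. The same held for other genes, epithelial markers among them, as given further on.

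The balance between the coactivators was taken as the ratio of Wwtr1 to Yap1 counts per kb, which does not depend on scaling between libraries. It was 0.728, 0.749 and 0.77 in METTL7A1 replicates 1 to 3 and 0.728, 0.722 and 0.686 in mock replicates 1 to 3. Yap1 was thus the more abundant coactivator transcript in all libraries. The mean log2 ratio was higher by 0.07 in METTL7A1 cells (exact permutation test, two-sided, p = 0.1), which is the smallest p that 3 against 3 libraries allow. Replicate 1 of either group gave the same ratio to 3 digits.

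TEAD factors bind DNA and recruit YAP or TAZ through their carboxy-terminal domain. Tead1 (chromosome 7, 112679318 to 112906807, plus strand) was at 94.6, 93.6 and 101 cpm in METTL7A1 cells and at 84.6, 87.1 and 119 cpm in mock cells. Mock replicate 3 was the highest of the 6 libraries and mock replicates 1 and 2 the lowest, so the METTL7A1 libraries lay inside the mock range. The log2 fold change was -0.01 with an interval from -0.26 to 0.24 (edgeR adjusted p = 0.961), and without mock replicate 3 it was 0.18 (edgeR adjusted p = 0.0629). Tead3 (chromosome 17, 28331671 to 28350805, minus strand) was low, at 12.8, 11.8 and 11.1 cpm in METTL7A1 cells and 13.6, 11.1 and 11.4 cpm in mock cells. Its groups overlapped, and the log2 fold change was -0.01 (interval from -0.27 to 0.24, edgeR adjusted p = 0.933). The log2 ratio of Tead3 to Tead1 per kb differed by -0.02 (exact permutation test, two-sided, p = 0.9, with 0.1 the smallest possible), with a wide spread among mock libraries (-0.89, -1.23 and -1.64).

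The remaining TEAD genes were set beside them. Tead4 fell from 33.0, 32.3 and 33.9 cpm in mock cells to 25.2, 26.4 and 26.4 cpm in METTL7A1 cells. The groups were apart and the spread within each was small, and the difference on the log2 scale was -0.35 (SE 0.07, edgeR adjusted p = 0.00286). Tead2 did not pass the test (0.11, SE 0.09, edgeR adjusted p = 0.362). Of all TEAD counts per kb, Tead4 made up 30.7% to 32.3% in mock cells and 26% to 26.8% in METTL7A1 cells. Tead1 made up 29.5% to 38.4% and 33.9% to 36% and Tead3 12.4% to 15.9% and 13.2% to 15.8%, in the same order. Tead2 made up 18.5% to 23.3% and 23.2% to 24.9%. Tead4 is the member of the family whose share did not overlap between the groups, as its cpm did not. In cpm, groups without overlap were found for 51.6% of all genes tested. Tead2 came close to it, with shares up to 23.3% in mock and from 23.2% in METTL7A1 cells. The shares were not tested.

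Lats2 encodes a kinase that phosphorylates YAP and TAZ and is itself a YAP target, which makes it part of a feedback loop. Lats2 (chromosome 14, 57689662 to 57746123, minus strand) was at 83.3, 75.1 and 80.2 cpm in METTL7A1 cells and at 85.8, 87.1 and 88.4 cpm in mock cells. All METTL7A1 libraries lay below the mock libraries, but the difference did not pass the test (log2 fold change -0.13, interval from -0.28 to 0.01, edgeR adjusted p = 0.136). Amotl2, an angiomotin that holds YAP at junctions and the cytoskeleton and is induced by YAP, overlapped between the groups. Amotl2 (chromosome 9, 102716802 to 102733418, plus strand) was at 175, 189 and 173 cpm in METTL7A1 cells and at 208, 192 and 177 cpm in mock cells, a log2 fold change of -0.10 (interval from -0.28 to 0.07, edgeR adjusted p = 0.32). Neither feedback gene was thus called.

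Ctgf and Cyr61 encode secreted matricellular proteins of the CCN family (CCN2 and CCN1) that signal through integrins, and they are the usual reporters of YAP-TEAD transcription. Cyr61 (chromosome 3, 145646976 to 145649981, minus strand) was at 499, 518 and 544 cpm in METTL7A1 cells and at 417, 444 and 393 cpm in mock cells. Each METTL7A1 library lay above each mock library, with means of 520 ± 22.6 and 418 ± 25.5 cpm (SD, n = 3 each). This came to 0.32 on the log2 scale, with an SE of 0.08 and an interval from 0.14 to 0.49 (edgeR adjusted p = 0.00854). Ctgf (chromosome 10, 24595442 to 24598683, plus strand) was at 319, 351 and 368 cpm in METTL7A1 cells and at 380, 395 and 381 cpm in mock cells. Here each METTL7A1 library lay below each mock library, but the difference did not pass the test (log2 fold change -0.16, interval from -0.33 to 0.02, edgeR adjusted p = 0.135).

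Cyr61 was called and Ctgf was not. With an offset for chromosomal neighbours, given further on, both were called as higher relative to their neighbours (0.38 and 0.26). The level of Ctgf itself was lower in each METTL7A1 library than in each mock library. The ratio of Cyr61 to Ctgf counts per kb, a comparison chosen after these values were seen and for that reason not tested, was 2.15, 2.03 and 2.03 in METTL7A1 replicates 1 to 3. It was 1.51, 1.54 and 1.42 in mock replicates 1 to 3. The ratio varied little within a group. Its groups could not overlap, as Cyr61 lay wholly above and Ctgf wholly below mock, so the gap adds nothing to those values.

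**Figure D2:**
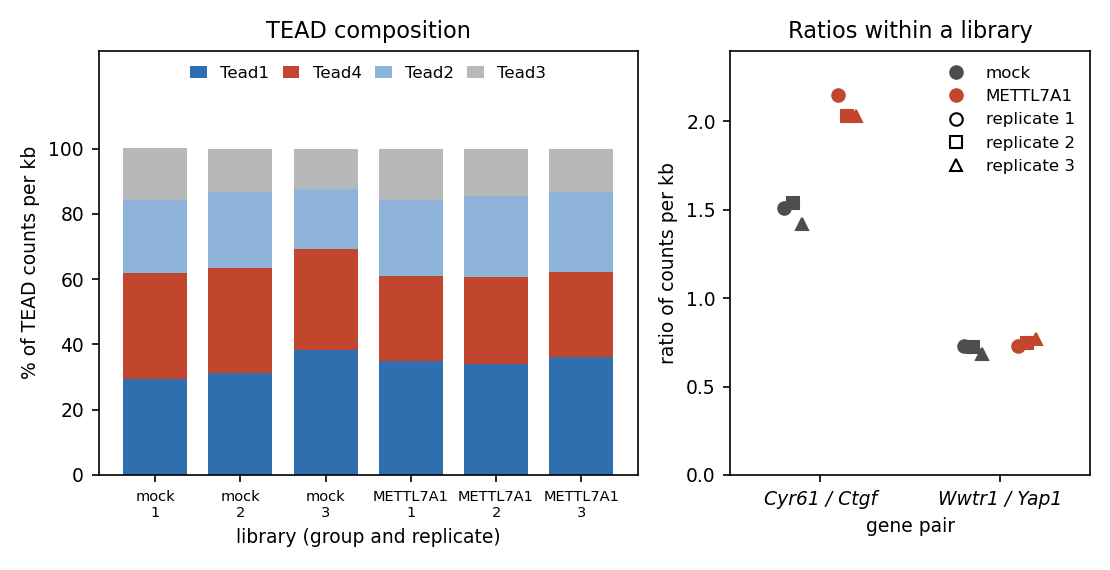
Left, share of each TEAD gene in the counts per kb of the 4 TEAD genes, as stacked bars for each library. Right, ratios of counts per kb within a library for Cyr61 to Ctgf and Wwtr1 to Yap1, with mock in grey, METTL7A1 in red and a marker shape for each replicate number. Tead4 took 30.7% to 32.3% in mock and 26% to 26.8% in METTL7A1 libraries. The ratio of Cyr61 to Ctgf was 1.42 to 1.54 in mock and 2.03 to 2.15 in METTL7A1 libraries, a gap that follows from the levels of the genes themselves.

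Ankrd1 encodes an ankyrin repeat protein of the nucleus and the sarcomere and is among the most sensitive YAP targets. Ankrd1 (chromosome 19, 36111965 to 36119844, minus strand) was at 239, 240 and 245 cpm in METTL7A1 cells and at 223, 241 and 224 cpm in mock cells. Mock replicate 2 lay within the METTL7A1 range, and the log2 fold change was 0.07 (interval from -0.08 to 0.23, edgeR adjusted p = 0.436). Axl encodes a receptor tyrosine kinase of the TAM family linked to invasion of carcinoma cells. Axl (chromosome 7, 25757273 to 25788705, minus strand) was at 669, 803 and 837 cpm in METTL7A1 cells and at 1060, 1060 and 899 cpm in mock cells. The groups did not overlap, although METTL7A1 replicate 3 (837 cpm) and mock replicate 3 (899 cpm) were close. The means were 770 ± 89.0 and 1010 ± 92.0 cpm (SD, n = 3 each). This came to -0.38 on the log2 scale, with an SE of 0.11 and an interval from -0.63 to -0.14 (edgeR adjusted p = 0.0152). The call was lost without mock replicate 1 (-0.33, edgeR adjusted p = 0.0716) or mock replicate 2 (-0.35, edgeR adjusted p = 0.05).

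The promoters of the module were read for the TEAD core motif CATTCC, on both strands (GGAATG on the other), in the 250 bases before each start site that RefSeq gives (GRCm38.p6). Of the 10 genes 8 had at least 1 start site in the table used, 12 windows in all, and Tead1 and Ctgf had none there. The motif occurred in 9 of the 12 windows and in 7 of the 8 genes, all but Lats2, and in 12.6% of all 32851 windows. Some windows of a gene overlap, so they are not independent. The AP-1 core TGANTCA, which reads the same on both strands, was in none of the 12 windows and in 6.75% of all windows. Windows are shown for the 2 called genes, Cyr61 and Axl, and for Ankrd1, which was not called and holds the motif at 2 places. They lie at chr3:145649986-145650235, chr7:25788734-25788983 and chr19:36119845-36120094, all on the minus strand, and read 5′ to 3′ along the gene with the motif in capitals.
Cyr61: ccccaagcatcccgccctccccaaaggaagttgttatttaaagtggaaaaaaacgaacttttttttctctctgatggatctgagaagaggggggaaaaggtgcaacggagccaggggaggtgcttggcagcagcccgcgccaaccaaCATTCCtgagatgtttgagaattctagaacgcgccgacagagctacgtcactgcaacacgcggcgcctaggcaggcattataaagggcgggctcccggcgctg
Axl: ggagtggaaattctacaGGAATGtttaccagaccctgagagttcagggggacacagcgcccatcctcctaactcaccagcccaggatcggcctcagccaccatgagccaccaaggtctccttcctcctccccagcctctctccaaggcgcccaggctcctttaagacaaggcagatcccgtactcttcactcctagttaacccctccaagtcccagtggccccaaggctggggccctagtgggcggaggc
Ankrd1: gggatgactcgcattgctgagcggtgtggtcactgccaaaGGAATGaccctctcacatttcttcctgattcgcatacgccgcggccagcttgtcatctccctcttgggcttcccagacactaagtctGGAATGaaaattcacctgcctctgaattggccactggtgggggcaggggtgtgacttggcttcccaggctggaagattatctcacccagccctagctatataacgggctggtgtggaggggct

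In Cyr61 the motif began 103 bases before the start site, and in Axl it began 233 bases before it, on the opposite strand. In Ankrd1 it began 210 and 123 bases before the start, both times on the opposite strand. In Amotl2 and Yap1 it began 65 and 141 bases before the start. The motif was thus present near the start of the gene that rose, of the gene that fell and of genes that were not called.

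Genes near each other moved together on some chromosomes, and each gene was therefore set beside the median log2 fold change of its 40 nearest abundant neighbours. Ctgf lies in the lowered proximal part of chromosome 10, where this median was -0.42, compared with -0.16 for Ctgf itself. With the neighbour median as an offset, Ctgf turned to 0.26 and was called as higher relative to its neighbours (edgeR adjusted p = 0.0261). Lats2, on chromosome 14, had neighbours at -0.28, and its own value turned from -0.13 to 0.15 without being called (edgeR adjusted p = 0.119). Cyr61 and Axl had neighbours at -0.06 and -0.07 and kept their calls with the offset (0.38 and -0.32, edgeR adjusted p = 0.00447 and 0.0466). The part of such regional shifts in the result for Ctgf was not tested.

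**Figure D3:**
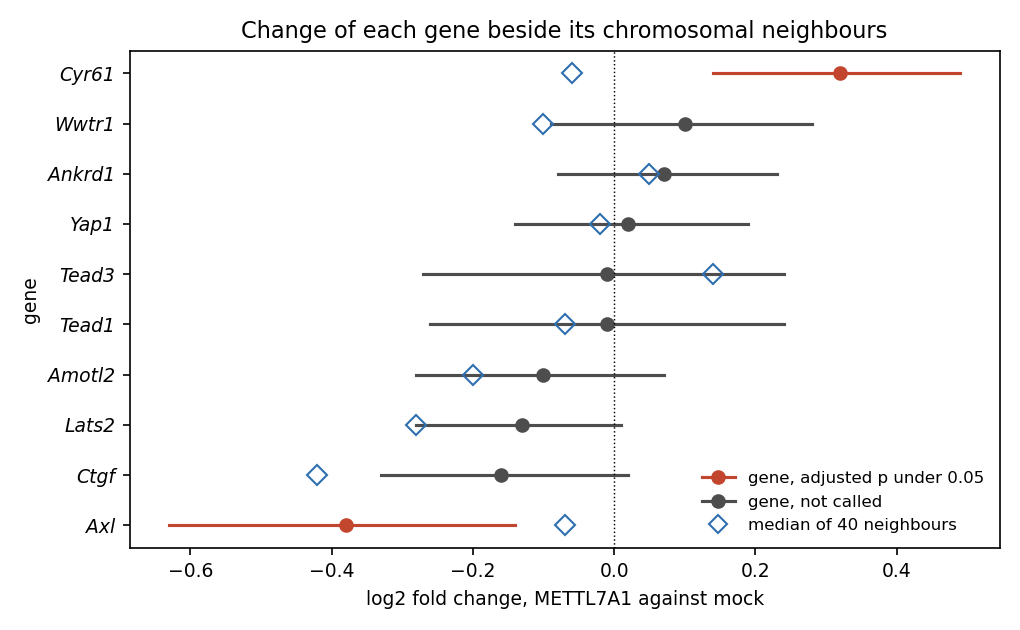
Log2 fold change of each gene between METTL7A1 and mock cells (dots) with its 95% confidence interval (lines), red where the adjusted p was under 0.05, and the median of the 40 nearest abundant neighbours (blue diamonds). Cyr61 (0.32) and Axl (-0.38) lay apart from neighbours near 0, and Ctgf (-0.16) lay above neighbours at -0.42.

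Other genes of the pathway were read from 5 lists with 58 genes in all. Of these, 44 were tested and 23 were called (52.3%, compared with 42.1% of all genes), 9 higher and 14 lower in METTL7A1 cells, with Mertk, whose call is treated apart, counted among the 14. None was past the study thresholds, and the median log2 fold change was -0.12.

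The Hippo kinase module was split in direction. All 16 of its genes were tested and 9 were called (56.2%, compared with 42.1% of all genes), 4 higher and 5 lower, with a median log2 fold change of -0.06. Frmd6, a FERM domain protein upstream of the kinases, fell from 133 to 143 cpm in the mock libraries to 79.1 to 86.7 cpm in the METTL7A1 libraries (-0.76, SE 0.07, edgeR adjusted p = 1.18e-05). Sav1, the scaffold of the MST kinases, fell by 0.60 on the log2 scale (SE 0.07) and Lats1, the paralogue of Lats2, by 0.36 (SE 0.07). In contrast, Nf2, which encodes the membrane adaptor merlin, rose by 0.35 (SE 0.06), Stk4, the gene of MST1, by 0.34 (SE 0.07) and Stk38, an NDR kinase, by 0.30 (SE 0.07). Taok1 (-0.05, SE 0.07) and Map4k4 (-0.07, SE 0.07), abundant kinases that can act on LATS, were not called. Frmd6 and Sav1 lie on chromosome 12 beside neighbours at a median of -0.51, and Lats1 on proximal chromosome 10 beside neighbours at -0.42. With the neighbour offset 5 genes of the list were called rather than 9, and the share over all genes went from 42.1% to 31.5%. Frmd6 (-0.25), Nf2 (0.44) and Taok3 (0.53) were still called, and Stk3 (0.29) and Wwc2 (-0.20) gained a call. Taok3 lost its call in 6 of 15 alternatives, with DESeq2 and the replicate block among them. Stk3 and Wwc2 were called in no alternative but the offset. The calls of Sav1 (-0.09), Stk4 (0.11), Stk38 (0.18), Taok2 (-0.22), Mob1a (-0.17) and Lats1 were lost, and Lats1 turned to 0.06.

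Of 12 regulators at junctions and the cytoskeleton 9 were tested and 3 were called (33.3%, compared with 42.1% of all genes), all lower, with a median log2 fold change of -0.18. Ajuba, a LIM protein that binds LATS and limits its activity, was at 106 to 116 cpm in METTL7A1 libraries and 173 to 195 cpm in mock libraries (-0.72, SE 0.07, edgeR adjusted p = 2.54e-05). Its neighbours on chromosome 14 had a median of -0.30, and it was still called with the offset (-0.42). Mpp5, a polarity scaffold, fell by 0.41 on the log2 scale (SE 0.07) and turned to 0.09 with the offset, its neighbours on chromosome 12 being at -0.50. Amot, the angiomotin relative of Amotl2, fell by 0.39 (SE 0.09). The atypical cadherin Fat1 (-0.24, SE 0.09, edgeR adjusted p = 0.0601) and Amotl1 (0.02, SE 0.07) were abundant and not called, although Fat1 was called in 6 of 15 alternatives, with DESeq2 and voom among them. Fat4, Dchs1 and Wtip were below the filter with at most 2 counts in a library. With limma's voom, with the offset, without METTL7A1 replicate 1 or without mock replicate 3, 5 genes of this list were called. The share over all genes was then 42.1%, 31.5%, 41.7% and 44.5%, in the same order.

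VGLL proteins compete with or assist YAP on TEAD factors. Among the TEAD paralogues and VGLL genes outside the module, 4 of 6 were tested and 3 called (75%, compared with 42.1% of all genes), too few genes to set against that share. Vgll4, a repressor of TEAD activity, fell by 0.39 on the log2 scale (SE 0.09, edgeR adjusted p = 0.00423), alongside Tead4. Vgll3 rose by 0.40 (SE 0.12, edgeR adjusted p = 0.0205), a call lost with the offset and without METTL7A1 replicate 3 or mock replicate 1. Vgll1 and Vgll2 had at most 1 count in any library.

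A further 16 genes that are commonly used as YAP/TAZ targets did not shift in 1 direction. Of these 12 were tested and 5 called, 3 higher and 2 lower (41.7%, compared with 42.1% of all genes), with a median log2 fold change of 0.04. Tgfb2, a TGF-beta ligand, fell from 5.94 to 6.40 cpm in mock libraries to 3.23 to 3.55 cpm in METTL7A1 libraries (-0.86, SE 0.14, edgeR adjusted p = 0.000675). Dock5, a guanine nucleotide exchange factor for Rac, fell by 0.24 (SE 0.07). F3, the gene of tissue factor, rose by 0.47 (SE 0.11), Gadd45a, a growth arrest gene, by 0.53 (SE 0.13) and Arhgef17 by 0.20 (SE 0.07). The abundant targets Myof (-0.03, SE 0.08) and Nt5e (0.21, SE 0.09) were not called, although Nt5e was called in 4 of 15 alternatives. Igfbp3, Foxf2, Ccdc80 and Rbms3 were below the filter with at most 4 counts in a library, too few to show a difference. The call of Dock5, whose neighbours had a median of -0.21, was lost with the offset (-0.03), without the abundance filter (-0.20) and without METTL7A1 replicate 2, METTL7A1 replicate 3 or mock replicate 1. That of Arhgef17 was lost with the replicate block (edgeR adjusted p = 0.067) and without METTL7A1 replicate 2 or 3 or mock replicate 2 or 3. That of Gadd45a was lost without METTL7A1 replicate 2 (edgeR adjusted p = 0.0519). The number of called targets was 2 without METTL7A1 replicate 2, 3 without METTL7A1 replicate 3 and 7 with the neighbour offset. The share over all genes was then 29.1%, 35.2% and 31.5%, in the same order.

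The closest relatives of the secreted and receptor targets were mostly low. Of 9 genes 4 were tested and 3 were called (75%, compared with 42.1% of all genes), too few genes to set against that share. The count includes Mertk, which passed the filter only through the mock libraries. Wisp1, the CCN family member CCN4, fell from 7.53 to 8.50 cpm in mock libraries to 2.95 to 3.28 cpm in METTL7A1 libraries (-1.35, SE 0.14, edgeR adjusted p = 3.16e-05). The remaining CCN genes Nov, Wisp2 and Wisp3 were below the filter, so Cyr61, Ctgf and Wisp1 were the members of the family that were tested. Among the TAM receptors related to Axl, Tyro3 rose by 0.62 (SE 0.10, edgeR adjusted p = 0.000472), while Mertk was at 0.677 to 0.916 cpm in METTL7A1 libraries and at 1.59 to 2.19 cpm in mock libraries. Mertk passed the filter through the mock libraries alone, where it is high, so its call carries no weight. Gas6, the ligand of all TAM receptors, had at most 1 count in any library. Ankrd23, a relative of Ankrd1, was not called (-0.33, SE 0.23), and Ankrd2 was below the filter.

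**Figure D4:**
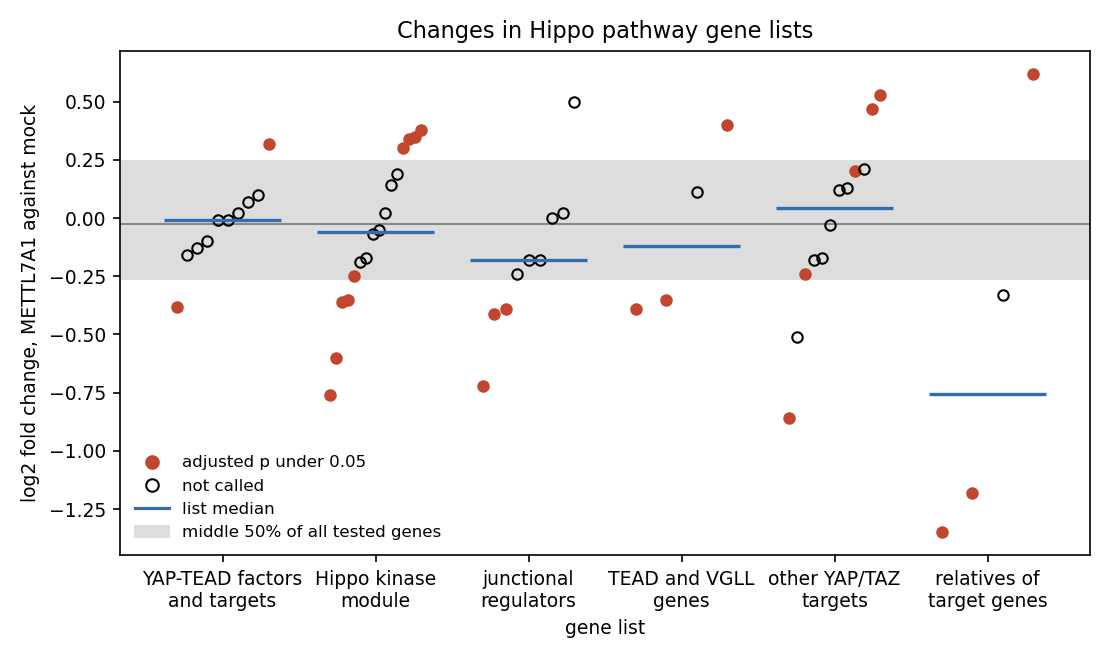
Log2 fold change between METTL7A1 and mock cells of each tested gene in the module and the 5 pathway lists, filled red where the adjusted p was under 0.05 and open where it was not. Blue lines mark list medians, the grey band the middle 50% of all tested genes and the grey line their median; the median of the module was -0.01, and the lowest gene of the kinase module was Frmd6 (-0.76).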

How the data were processed

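Total RNA of 3 METTL7A1 and 3 mock libraries of 4T1 cells was measured. Groups and replicate numbers were read from the sample titles. The authors used BBDuk for trimming, STAR 2.5.3a for alignment to mm10 and featureCounts with an Ensembl annotation for counting, and deposited raw counts per gene without normalisation. Exon lengths come from the same table. The strand setting and the handling of multimapping reads were not given in the sources used here. No gene of the module overlapped an exon of another gene on its strand. On the opposite strand Yap1 and Ctgf overlapped Gm20416 and Gm15270, which had at most 12 and 47 counts.

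The test was that of edgeR 4.0.16 under R 4.3.3. A gene was kept where 3 or more libraries reached 1 cpm, and the kept genes were scaled by TMM and tested by the quasi-likelihood test without covariates. P values were adjusted by the Benjamini-Hochberg method over all 13166 genes, and a gene was called at an adjusted p under 0.05. The SE was the log2 fold change divided by the square root of F, and 95% intervals used the t quantile of the fit. Cpm values are on TMM-scaled totals, as mean ± SD. A total of 18386780 counts puts 3 counts at 0.163 cpm in the smallest library, for counting error only. The 10 genes and all lists were chosen with earlier results of these data known. Of each other list the text names up to 6 called genes with the smallest p and the 2 most abundant uncalled ones. Alternatives were RLE and upper quartile scaling, no filter or a minimum of 10 counts per library, a table without its 20 most abundant genes, a block for the replicate number, DESeq2 1.42.0, voom of limma 3.58.1, the neighbour offset and omission of each library. The neighbour offset used genes with an average log2 cpm over 2. It entered the fit as a fixed value, so p values with the offset leave out its own error. The edgeR fit was also run on simulated data, with changes larger than those of the module, so that check does not cover differences of this size. Promoter windows were RefSeq's for GRCm38.p6, the build of the table.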

Additional observations from a re-analysis of the deposited data

How the results depend on the processing

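The number of called genes in the module was 2 under each scaling and filter, without the 20 most abundant genes and with DESeq2 and voom, while the share called over all genes went from 42.1% to 20.9% without a filter. It was 3 with the neighbour offset, where Ctgf (0.26) was added, while the share over all genes was 31.5%. With a library left out it ranged from 1 to 2, as Axl lost its call without mock replicate 1 or 2. The share over all genes was 32.7% and 35.3% in those 2 fits, and 29.1% to 44.5% over all omissions. No gene of the module was past the study thresholds in any of these fits. Of 150 values of single genes of the module under an alternative, 147 kept the call or its absence and 2 (Axl) lost it. The remaining value, Ctgf with the neighbour offset, was called in the opposite direction, relative to its neighbours. The log2 fold change of Cyr61 ranged from 0.28 to 0.38 and stayed called throughout, with adjusted p from 6.24e-05 to 0.0354. That of Axl ranged from -0.45 to -0.28, with adjusted p from 0.000585 to 0.0716, and that of Mettl7a1 from 7.91 to 8.32.

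No pairing by replicate number was seen, as libraries with the same number, each taken relative to its group, correlated at -0.15, 0.20 and -0.37. With 3 libraries a group such correlations cannot exclude pairing. With the replicate block 2 genes of the module were called, with Cyr61 at 0.32 and Axl at -0.39, and 20 of the other listed genes compared with 23, while the share over all genes was 36.5% compared with 42.1%. Without 1 library their number was 17 to 25 and the share over all genes 29.1% to 44.5%. Under the neighbour offset Lats1 (0.06) and Mpp5 (0.09) turned positive and lost their calls. The cause was not tested. The log2 ratio of Wwtr1 to Yap1 differed by 0.05 to 0.09 in all alternatives, while that of Tead3 to Tead1 went from -0.21 to 0.16 with a library left out and was 0.16 without mock replicate 1 and 0.06 without METTL7A1 replicate 3. With 3 libraries a group, the intervals of the uncalled genes of the module reached down to -0.33 and up to 0.28 on the log2 scale, so differences inside them could not be told from none.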

Other observations

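Some genes of the module had the same highest and lowest libraries, a pattern noticed after the values were seen. In mock cells Yap1, Wwtr1, Ctgf, Cyr61 and Ankrd1 were all highest in replicate 2, at 0.04 to 0.11 above the group mean on the log2 scale. In METTL7A1 cells the same 5 genes and Axl were all lowest in replicate 1 and highest in replicate 3. The pattern was not particular to the module. Mock replicate 2 was also highest for all 6 epithelial markers, and in METTL7A1 cells Mettl7a1, Epcam, Krt7, Krt8, Krt18 and Krt19 were lowest in replicate 1 and highest in replicate 3. Tead3 had the opposite order in METTL7A1 cells (12.8, 11.8 and 11.1 cpm). This was not tested.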
